A study of Mus musculus with 6 samples.

Results

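Alveolar macrophages were picked from single-cell RNA sequencing of mouse lung by a rule on marker genes. A barcode was kept as a cell when it held at least 500 UMIs (counted RNA molecules), at least 300 genes and under 20% mitochondrial UMIs. A kept cell was called an alveolar macrophage when at least 4 of the 10 markers Marco, Ctsk, Atp6v0d2, Siglecf, Ear1, Ear2, Plet1, Cidec, Krt79 and Slc39a2 were detected and no UMI of the T cell gene Cd3e, the B cell gene Cd79a or the endothelial gene Cdh5 was present. The rule found 3469 cells among 76800 kept cells. The lungs came from male C57BL/6J mice aged 12 weeks, with 2 mice in each of 3 groups and 1 library per mouse. Control mice received PBS. LPS mice received lipopolysaccharide, a bacterial cell wall component, at 1 mg/kg. In the third group, written SLC+LPS here, SLC-Gq activation was given 7 times together with LPS at 1 mg/kg. SLC is the abbreviation of the labels, and the title of the series speaks of the subcoeruleus nucleus and of sympathetic nerves. Lungs were taken on day 3, digested with enzymes and depleted of dead cells. The timing of the activations relative to LPS could not be read from the labels, and mice with activation but without LPS were not analysed here.

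Alveolar macrophages live in the air spaces, where they clear surfactant, inhaled particles and dying cells. They arise from fetal monocytes, renew themselves locally, and depend on GM-CSF from the epithelium and on the transcription factor PPARγ. During lung inflammation they answer bacterial products through Toll-like receptors, and monocytes recruited from blood can enter the same niche and take on part of the same gene programme. Noradrenaline released by sympathetic nerves is sensed through adrenergic receptors, some of which macrophages carry.

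The 6 libraries held 31589233 to 48641470 UMIs over 165547 to 253281 barcodes, of which 11608 to 13710 were kept as cells. No barcode of an alveolar macrophage occurred in more than 1 library. Alveolar macrophages were the deeper cells of every library, with a median of 4850.5 and 4115 UMIs per cell in control_1 and control_2, 12275 and 12146 in LPS_1 and LPS_2, and 12245.5 and 10551 in SLC+LPS_1 and SLC+LPS_2. The other kept cells had medians of 1120 to 2526 UMIs. Free RNA, taken from barcodes with 1 to 100 UMIs, was estimated to make up 40.5% and 54.7% of the UMIs of the selected cells in the controls, 30.6% and 4.57% in LPS_1 and LPS_2, and 23.9% and 67.3% in SLC+LPS_1 and SLC+LPS_2. LPS_2 thus stood apart with the lowest estimate and SLC+LPS_2 with the highest. The estimate is a median over genes of T, B, endothelial, fibroblast, alveolar type 2 and club cells. It compares their level in the selected cells with that in free RNA, and assumes that the selected cells do not express them. RNA of doublets or mixed cells would also count in it. For the Ly6c2-positive cells described below it came to 149.6% in SLC+LPS_2, which no true share can reach. For each gene the percentage of its level that this free RNA would give is quoted below where it is above 20% for genes that passed a test and are given with their values, taken in the group with the higher level.

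The selected cells carried the label's markers in all 6 libraries, as the rule requires, and the single markers differed between libraries. Plet1 was detected in 88.6% to 98.6% of the cells of a library, Atp6v0d2, a subunit of the proton pump, in 91.7% to 95.9%, and Ear2, a ribonuclease of the eosinophil-associated family, in 84.2% to 97.2%. Ctsk, the protease cathepsin K, was found in 78.2% and 83.4% of control cells and in 96.1% to 99.6% of cells of the 4 LPS-treated libraries. Its level was 624 and 935 CPM in controls and 3145 to 4831 CPM after LPS with or without activation, where CPM is the UMI count scaled to library depth and normalised between libraries. Siglecf, the sialic acid receptor used to gate these cells, ran the other way, at 248 and 211 CPM in controls, 52.8 and 154 CPM in LPS, and 68.9 and 30.7 CPM in SLC+LPS. Cidec, a lipid droplet protein, was at 180 and 149 CPM in controls and at 23.1 to 36.5 CPM in the other 4 libraries. Marco, a scavenger receptor, was highest in LPS_2 and SLC+LPS_1 at 664 and 673 CPM and between 71.5 and 184 CPM elsewhere. These markers chose the cells, so their values are a description and were not tested.

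**Figure D1:**
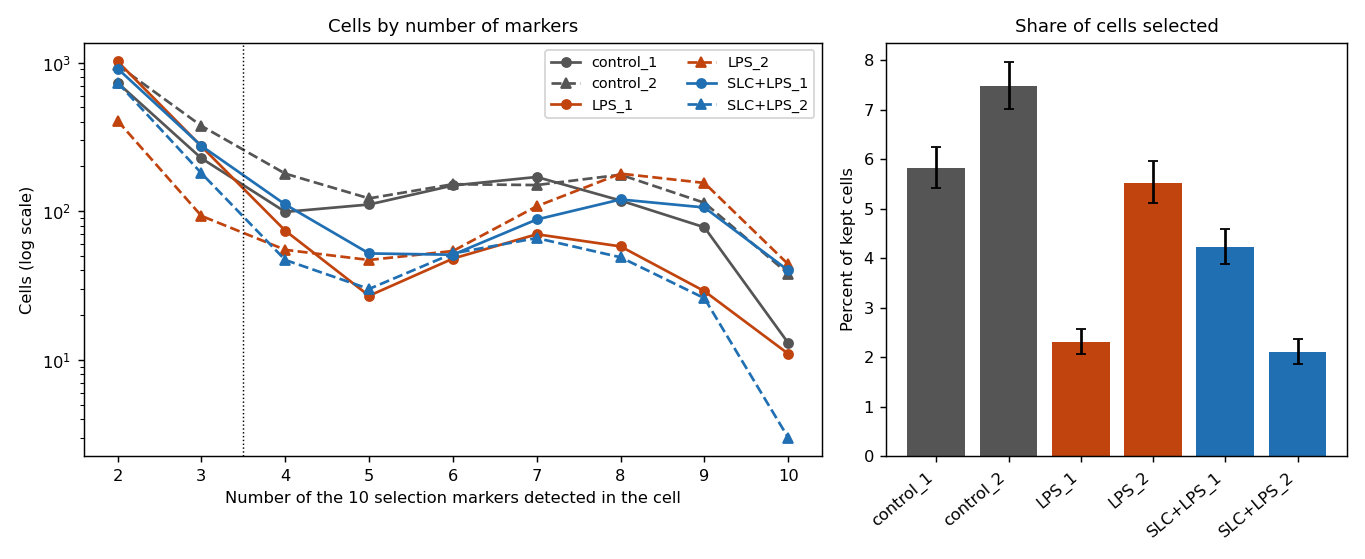
Number of the 10 selection markers detected per kept cell, in each of the 6 libraries, on a logarithmic count axis, with the minimum of 4 markers drawn in. In every library a second hump of cells peaks at 7 or 8 markers beyond a dip at 4 to 6, for example 27 cells with exactly 5 markers in LPS_1.

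How far a cell was inside the rule mattered for what it contained. Cells with exactly 3 markers, just outside, numbered 93 to 375 per library, and cells with 4 or 5 markers, just inside, numbered 77 to 301, or 15.9% to 32.3% of the selected cells of a library. The cells with 6 or more markers numbered 528 and 630 in controls, 216 and 540 in LPS, and 405 and 196 in SLC+LPS. Chil3, a chitinase-like protein abundant in resident alveolar macrophages that the rule did not use, was at 7501 to 15368 CPM with 6 or more markers, at 1485 to 10666 CPM with 4 or 5, and at 431 to 2390 CPM with exactly 3. Ly6c2, a surface protein of recruited monocytes, ran in the opposite order in the 4 treated libraries, with 275 to 815 CPM at 6 or more markers, 1680 to 4310 CPM at 4 or 5, and 2940 to 4865 CPM at exactly 3. By Chil3 and Ly6c2 the label held better for the cells with 6 or more markers, and those with 4 or 5 carried more RNA of other cell types. Cells with 4 or 5 markers also had fewer UMIs, with library medians of 1081 to 7728 against 4709 to 14634, so marker number and depth were not separated. Whether the treated cells with 6 or more markers were all resident cells was not tested. The counts below are also given for 6 or more markers. At that minimum estimated free RNA was between 2.49% and 29.1% of UMIs.

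Genes of other lung cell types were present at different levels in the groups. Summed levels of such genes, here and below, are scaled to library depth only and not normalised between libraries. The summed level of 8 fibroblast genes was 5061 and 5410 CPM in controls, 3288 and 96.1 CPM in LPS, and 2219 and 3468 CPM in SLC+LPS. The 5 club cell genes summed to 2972 and 4336 CPM in controls and to between 57.8 and 861 CPM in the treated libraries. The 11 interstitial macrophage genes, C1qa among them, summed to 204 and 402 CPM in controls and to between 40 and 695 CPM in the rest. The 8 genes of recruited monocytes, Ly6c2 among them, summed to 966 and 992 CPM in controls. They summed to 2139 and 1182 CPM in LPS and to 2103 and 2657 CPM in SLC+LPS. With 6 or more markers the monocyte sum was 801 and 914 CPM in controls and 1076 to 1722 CPM in the treated libraries. The 12 neutrophil genes summed to 618 and 339 CPM in controls and 717 to 1667 CPM after LPS with or without activation. The 6 alveolar type 2 cell genes summed to 234 and 304 CPM in controls, 81.9 and 48.6 CPM in LPS, and 186 and 177 CPM in SLC+LPS. The part of these other cells in the results below was not tested, and the value with 6 or more markers is given for the genes whose call or size it changed most.

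Alveolar macrophages were 5.82% and 7.48% of kept cells in control_1 and control_2, 2.31% and 5.53% in LPS_1 and LPS_2, and 4.23% and 2.11% in SLC+LPS_1 and SLC+LPS_2. The group means were 6.65% ± 1.17 (SD, n = 2), 3.92% ± 2.28 (SD, n = 2) and 3.17% ± 1.50 (SD, n = 2). All 4 treated libraries were under both controls by this rule, with LPS_2 closer to control_1 than to LPS_1. With 6 or more markers the shares were 4.17% and 5.06% in controls, 1.58% and 4.65% in LPS, and 3.02% and 1.51% in SLC+LPS, so that LPS_2 lay above control_1. Without cells holding other-cell UMIs LPS_2, at 1.59%, was above both controls, at 0.189% and 0.104%. An exact permutation test of 2 against 2 mice cannot give a two-sided p under 0.333, and the rule reads the same genes that differ between groups, so no test was made. When every cell was thinned to 500 UMIs before the rule was applied, the means were 3.27%, 1.64% and 0.774%. Fewer alveolar macrophages and more cells of other types in the digest cannot be told apart from shares.

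In LPS against control, alveolar macrophages had higher RNA of 7 interferon-stimulated genes, 6 inflammatory mediators and 5 acute phase genes, of the activin subunit Inhba, the chemokine Ccl9 and the cyclins Ccnb1 and Ccna2. The adrenergic receptor gene Adrb1, the keratin Krt19 and the early response gene Egr1 were lower. Of 11684 genes tested with edgeR's quasi-likelihood test on UMIs summed per mouse, 228 passed an adjusted p of 0.05 (Benjamini-Hochberg) against control, which is 1.95% of them. Of these 123 were higher and 105 lower, shares of 1.05% and 0.899%. The cells with 6 or more markers gave 287 genes, 161 higher and 126 lower, and 174 of the 228 were among them. Scaling by total UMIs alone, which moves the median log2 difference of all genes from 0.02 to -0.26, also gave 228 genes, but 71 higher and 157 lower. Where 1 mouse of a group is left out, the remaining mouse is assumed to vary like those of the other groups. The test rests on both control mice: edgeR called 0 genes without control_1 (1165 at an unadjusted p under 0.05) and 0 without control_2 (1283), and 2164 without LPS_1. With 2 mice a group, p-values rest on a spread estimated over all 3 groups together and moderated over genes. The SLC+LPS mice thus also enter the p-values of LPS against control, and leaving out either of them lowered the number of genes passing.

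**Figure D2:**
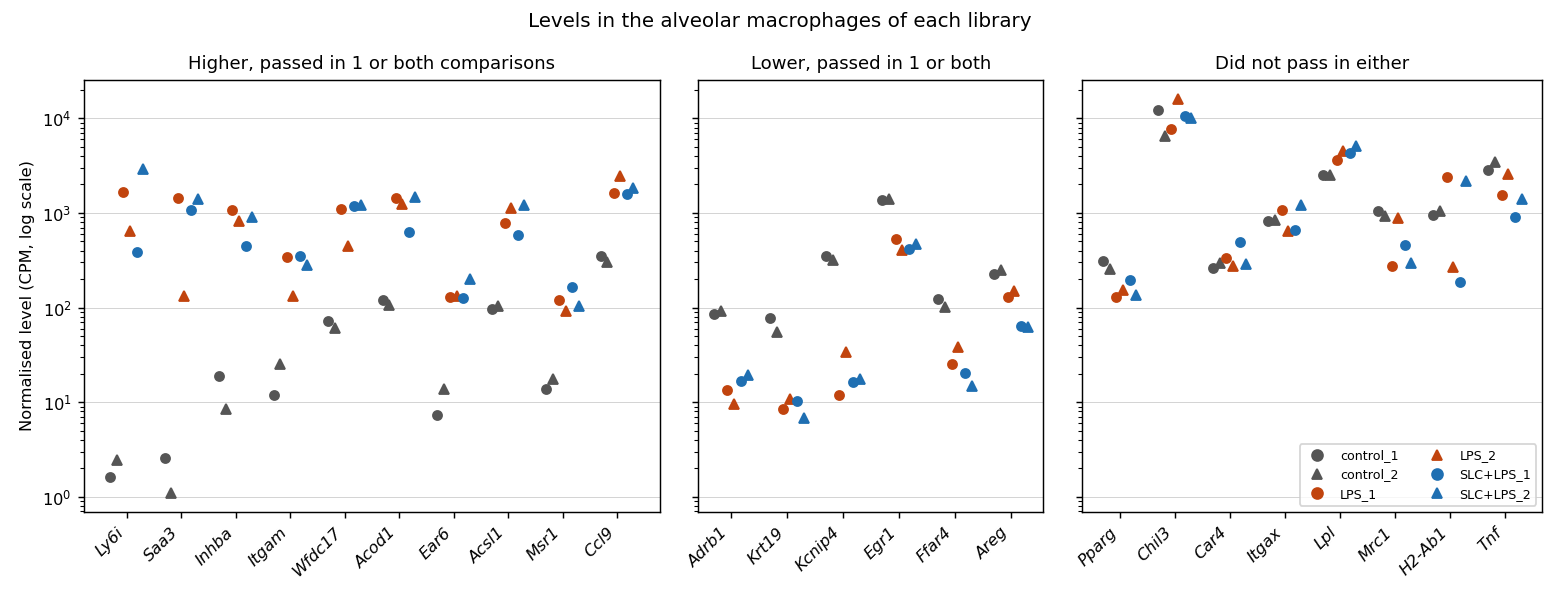
Level in each library, on a logarithmic CPM axis, of genes named for alveolar macrophages, with 1 point per mouse. Inhba, Ly6i, Ccl9 and Ear6 lie higher in all 4 LPS-treated libraries than in both controls, Adrb1 and Krt19 lie lower, and Pparg and Chil3 did not pass the test.

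Inhba encodes the subunit of which activin A is made, a secreted factor of the TGF-β family. It was at 19.0 and 8.44 CPM in control_1 and control_2, 1074 and 816 CPM in LPS_1 and LPS_2, and 451 and 906 CPM in SLC+LPS_1 and SLC+LPS_2. All 4 treated libraries were far above both controls, with SLC+LPS_1 the lowest of them. LPS against control gave a log2 difference of 6.11 (SE 0.58, edgeR adjusted p = 0.0367), and the cells with 6 or more markers gave 6.38 (adjusted p = 0.0181). Without control_1 the adjusted p was 0.165 and without control_2 it was 0.252, at differences of 6.83 and 5.65. Thinned to 1000 UMIs per cell, 1.52% and 1.64% of control cells, 48.8% and 32% of LPS cells and 24.3% and 48.3% of SLC+LPS cells held an Inhba UMI. Cells with a Cd3e or Cd79a UMI and at most 1 of the 10 markers, called lymphocyte-marked here, should lack Inhba and had it in 0.328% and 0.487% of cells in controls and 0.481% to 11.5% in the treated libraries after the same thinning, from medians of 1559.5 to 2093 UMIs. The alveolar macrophages' shares were above those in all 6 libraries.

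Among inflammatory cytokines and mediators, 6 of 25 tested genes passed, all higher in LPS: Nos2, Ptgs2, Ptges, Acod1, Sod2 and Slc7a2. The median log2 difference of the list was 1.10, against 0.02 over all genes tested. Sod2, the mitochondrial superoxide dismutase, was at 391 and 451 CPM in controls and 1551 and 1817 CPM in LPS, a log2 difference of 2.00 (SE 0.24, edgeR adjusted p = 0.0367). Ptges, which makes prostaglandin E2, was at 14.1 and 13.3 CPM in controls and 108 and 313 CPM in LPS (3.94, SE 0.53, adjusted p = 0.0367). Both LPS libraries were above both controls for these genes. Acod1, which makes itaconate, was at 121 and 106 CPM in controls and 1455 and 1234 CPM in LPS (3.57, SE 0.44, adjusted p = 0.0367), and free RNA would give 48.1% of its LPS level. Nos2, the inducible nitric oxide synthase, had 3 UMIs over both controls, so its LPS level was 113 times the control level with a 95% counting interval of 38.4 to 549, and free RNA would give 32.2%. Arg1, the arginase that competes with Nos2 for arginine, did not pass in LPS (adjusted p = 0.091), at 0.462 and 0.222 CPM in controls and 151 and 5.95 CPM in LPS.

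The cytokine genes best known for the LPS response did not pass. Il1b was at 1402 and 1108 CPM in controls and 3016 and 5281 CPM in LPS, a log2 difference of 1.72 (SE 0.33, edgeR adjusted p = 0.0537), with 30.5% of the level from free RNA. Both LPS values were above both control values. In the cells with 6 or more markers Il1b passed, at 1.71 with an adjusted p of 0.0444. Tnf was at 2846 and 3463 CPM in controls and 1550 and 2608 CPM in LPS (-0.60, SE 0.35, adjusted p = 0.374), and was thus abundant in the control cells already. Il1b was detected in 41.1% and 43.6% of thinned control cells and 82.7% and 84.1% of LPS cells. The lymphocyte-marked cells had it in 16.8% and 16.2% of cells in controls and 57.9% and 21.2% in LPS.

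Of the 23 chemokine and chemokine receptor genes tested, Ccl9 was higher and Ccl22 lower in LPS, and the list's median was 0.94. Ccl9, a chemokine for cells carrying Ccr1, was at 351 and 304 CPM in controls, 1640 and 2479 CPM in LPS, and 1596 and 1841 CPM in SLC+LPS. All 4 treated libraries were above both controls. The log2 difference for LPS was 2.65 (SE 0.29, edgeR adjusted p = 0.0367). Ccl22, a product of dendritic cells, was at 27.7 and 14.9 CPM in controls and 1.26 and 0.743 CPM in LPS. Its call was lost with 6 or more markers (adjusted p = 0.0619), and free RNA would give 48.8% of the control level. The summed level of 7 dendritic cell genes, Ccl22 among them, was 134 and 79.1 CPM in controls and 40.2 and 9.96 CPM in LPS. Cxcl9, a chemokine for T cells, did not pass (adjusted p = 0.0714), and its LPS values of 1326 and 177 CPM lay far apart.

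Of the 21 acute phase and antimicrobial genes tested, 5 passed and were higher in LPS, namely Saa3, Serpina3g, Wfdc17, Ly6i and Ly6c2, and the list's median was 1.14. Ly6i, a member of the Ly6 family of surface proteins, was at 1.62 and 2.44 CPM in controls, 1664 and 640 CPM in LPS, and 383 and 2945 CPM in SLC+LPS. The libraries of a treated group differed several-fold while both controls were near 0. The log2 difference was 9.13 (SE 1.28, edgeR adjusted p = 0.0377) and 10.61 with 6 or more markers (adjusted p = 0.0256). Thinned shares of Ly6i-positive cells were 0.138% and 0.219% in controls and 64.1% and 18.6% in LPS. The lymphocyte-marked cells had 0.187% and 0.418% in controls and 33.7% and 4.72% in LPS, below the alveolar macrophages in each LPS library.

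Saa3, a serum amyloid A protein, was at 2.54 and 1.11 CPM in controls and 1430 and 133 CPM in LPS, a log2 difference of 8.73 (SE 1.32, edgeR adjusted p = 0.0389), or 7.80 with 6 or more markers. Free RNA would give 25.8% of the LPS level. The share of thinned cells with Saa3 was 59.5% and 8.8% in LPS, against 49.2% and 2.98% of the lymphocyte-marked cells. Wfdc17, a small secreted antimicrobial-type protein, was at 72.1 and 60.2 CPM in controls and 1109 and 447 CPM in LPS (3.55, SE 0.46, adjusted p = 0.0367). Ly6c2 was at 32.6 and 23.3 CPM in controls and 918 and 345 CPM in LPS (4.50, SE 0.61, adjusted p = 0.0374), and with 6 or more markers the difference was 5.16 (adjusted p = 0.0181). For Ly6c2 free RNA would give 23.9% of the LPS level. It was found in 35.5% and 9.81% of thinned alveolar macrophages in LPS and in 46.5% and 19.9% of the lymphocyte-marked cells. Some lymphocytes carry Ly6c2 themselves, and nothing is read from these shares. The recruited-monocyte gene sum given above holds Ly6c2 as 1 of its 8 genes, so it is no separate reading. In LPS_2 that sum was above the controls by less than the Ly6c2 level itself. Lcn2, lipocalin 2, did not pass at 14.3 and 8.88 CPM in controls and 460 and 71.5 CPM in LPS (adjusted p = 0.0567). With 6 or more markers Lcn2 passed for LPS (4.93, SE 0.90, edgeR adjusted p = 0.0392) and for SLC+LPS (6.20, SE 0.95, adjusted p = 0.0328). Free RNA would give 31.8% of its LPS level in the full selection.

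Itgam, the integrin chain CD11b that resting alveolar macrophages carry at low level, was at 11.8 and 25.5 CPM in controls, 341 and 132 CPM in LPS, and 350 and 282 CPM in SLC+LPS. Its log2 difference for LPS was 3.66 (SE 0.57, edgeR adjusted p = 0.0398), and 4.36 (adjusted p = 0.0187) with 6 or more markers. Other large rises passing in LPS were the guanylate-binding protein gene Gbp6 (5.45), the eosinophil-associated ribonuclease Ear6 (3.61), the fatty acid activating enzyme Acsl1 (3.26) and the secreted glycoprotein gene Lgals3bp (3.23). Ear6 was at 7.40 and 13.8 CPM in controls, 128 and 132 CPM in LPS, and 125 and 199 CPM in SLC+LPS. Its treated libraries lay close together and far above the controls, while its relatives Ear1 and Ear2, which were selection markers, did not run that way: Ear2 was at 1911 and 1787 CPM in controls, 793 and 2069 CPM in LPS, and 480 and 858 CPM in SLC+LPS. Reads of near-identical members of the Ear family can be split between them by the counting, so the single members are uncertain.

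Of the 30 interferon-stimulated genes tested, 7 passed, all higher in LPS: Rsad2, Usp18, Cmpk2, Gbp3, Irgm1, Slfn4 and Slfn5. The unadjusted p was under 0.05 for 24 of the 30, again all higher, against 21.4% of all genes in either direction. The list's median log2 difference was 3.07. Cmpk2, a mitochondrial nucleotide kinase, was at 1.85 and 1.78 CPM in controls and 22.1 and 36.4 CPM in LPS (4.0, SE 0.44, edgeR adjusted p = 0.0367, and 4.59 with 6 or more markers). Gbp3, a guanylate-binding protein, was at 3.24 and 5.11 CPM in controls and 114 and 61.0 CPM in LPS (4.37, SE 0.59, adjusted p = 0.0367). Irgm1, an immunity-related GTPase, was at 15.7 and 6.88 CPM in controls and 125 and 122 CPM in LPS (3.45, SE 0.51, adjusted p = 0.0377). For each of these genes both LPS libraries were above both controls. Rsad2, which encodes the antiviral enzyme viperin, rose from 15.7 and 25.5 CPM to 201 and 248 CPM (3.44, adjusted p = 0.0468, and 4.25 with 6 or more markers). Slfn5, a schlafen family gene, was at 11.8 and 16.2 CPM in controls and 111 and 114 CPM in LPS (3.01, SE 0.45, adjusted p = 0.0389). At the LPS level free RNA would give 24.9% for Cmpk2, 30.3% for Slfn5, 46.2% for Rsad2, 35.1% for Usp18 and 74.0% for Slfn4.

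The promoters of these genes are shown because interferon-stimulated response elements are the known binding sites of the factors that interferon activates. The motif searched was GAAA, then NN for any bases, then GAAA, with nothing between, on both strands, in the 250 bases before each gene's start in RefSeq (GRCm38.p6, a build other than that of the counts). It occurred in 978 of 32851 RefSeq promoters, 2.98%. Of the 30 list genes 25 had an entry, and 13 of these held the motif, 52%. Of the 6 passing genes with an entry, Rsad2, Gbp3, Irgm1 and Slfn5 held it and Cmpk2 and Slfn4 did not. The stretches around the motif are printed 5′ to 3′ on the gene's strand, with the motif in capitals. The first is chr12:26456543-26456592 (minus strand), the second chr3:142559979-142560034 (plus), the third chr11:48871421-48871470 (minus) and the fourth chr11:82951927-82951976 (plus). All lie upstream of the annotated start, outside the gene.
Rsad2: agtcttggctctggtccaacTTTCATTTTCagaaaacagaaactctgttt
Gbp3: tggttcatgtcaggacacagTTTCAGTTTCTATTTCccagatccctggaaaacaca
Irgm1: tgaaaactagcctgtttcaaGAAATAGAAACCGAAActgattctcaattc
Slfn5: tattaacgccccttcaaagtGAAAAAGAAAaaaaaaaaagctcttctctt
Gbp3 and Irgm1 each carried 2 overlapping matches within 16 bases, and Rsad2 and Slfn5 carried 1. A match of letters is a description of these windows and no measured binding site.

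Of 19 antigen presentation genes tested, with a median of 0.42, Psmb9, an immunoproteasome subunit, passed, at 2.77 and 3.78 CPM in controls and 32.9 and 21.7 CPM in LPS (3.04, SE 0.41, edgeR adjusted p = 0.0367). The MHC class II gene H2-Ab1 was at 958 and 1043 CPM in controls, 2412 and 269 CPM in LPS, and 187 and 2168 CPM in SLC+LPS. LPS_1 and SLC+LPS_2 were thus above the controls and LPS_2 and SLC+LPS_1 below them. Thinned shares of H2-Ab1-positive cells ran the same way, with 47.2% and 54.5% in controls, 77.7% and 14.9% in LPS, and 13.2% and 74.9% in SLC+LPS. Cd74, the MHC class II chaperone, was found in 64.8% and 13.5% of LPS cells and 6.51% and 55.8% of SLC+LPS cells. The mice of a treated group differed more from each other here than the groups did, and neither comparison with control passed for H2-Ab1 (adjusted p = 0.873 and 0.934).

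**Figure D3:**
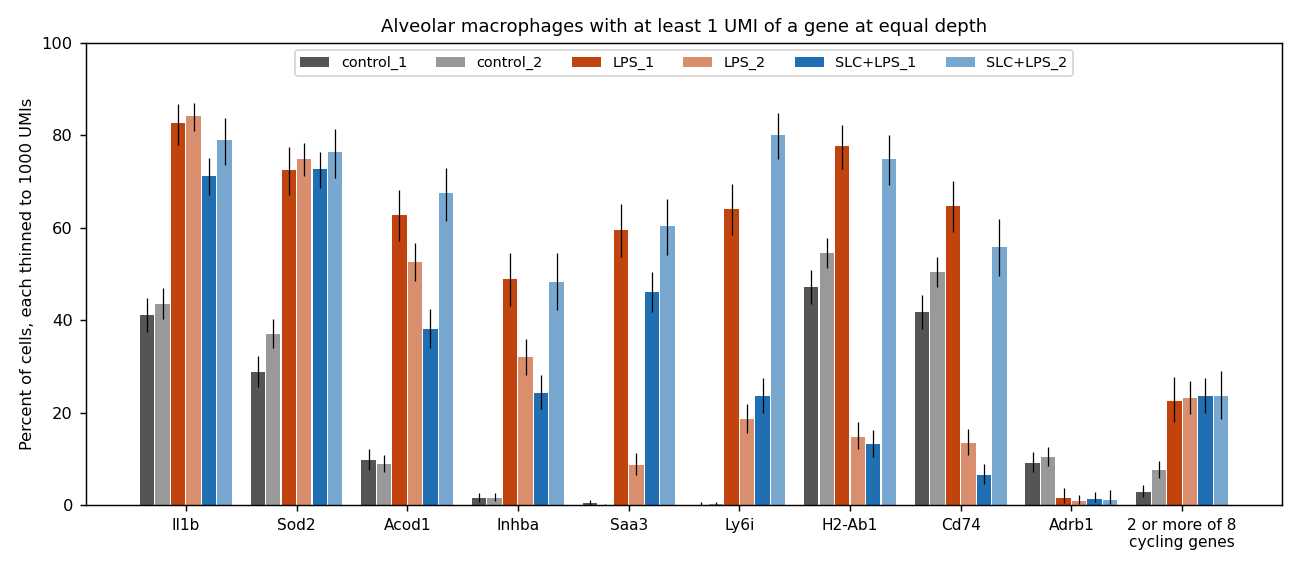
Percent of alveolar macrophages with at least 1 UMI of a gene after thinning each cell to 1000 UMIs, by library, with exact binomial 95% intervals that cover the counting of cells only. Inhba, Il1b and the cycling share lie higher in the 4 treated libraries than in both controls, while H2-Ab1 is high in LPS_1 and SLC+LPS_2 and low in LPS_2 and SLC+LPS_1.

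Of 24 cell cycle genes tested, the cyclins Ccnb1 and Ccna2 passed, both higher in LPS. An unadjusted p under 0.05 was found for 22 of the 24, all higher, against 21.4% of all genes in either direction. The list's median log2 difference was 1.77. Ccnb1, cyclin B1, was at 8.32 and 12.4 CPM in controls, 42.7 and 55.5 CPM in LPS, and 50.1 and 40.8 CPM in SLC+LPS (2.24 for LPS, SE 0.32, edgeR adjusted p = 0.0377). Ccna2, cyclin A2, was at 14.8 and 31.5 CPM in controls and 95.8 and 136 CPM in LPS (2.32, SE 0.40, adjusted p = 0.0468). For both cyclins control_2 was above control_1, and all treated libraries were above both. Mki67, the proliferation marker Ki-67, did not pass (1.96, SE 0.44, adjusted p = 0.0698). After thinning to 1000 UMIs, cells with at least 2 of 8 cycling genes were 2.90% (exact binomial 95% interval 1.81 to 4.41) in control_1, 7.65% (6.01 to 9.57) in control_2, 22.6% (18.0 to 27.7) in LPS_1 and 23.2% (19.8 to 26.8) in LPS_2. The SLC+LPS libraries were at 23.6% each. Unthinned shares were 9.08% and 16.6% in controls and 51.9% to 66.7% in the treated libraries.

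Of 20 glycolysis and hypoxia genes Pgam1 and Pgk1 passed, both higher, with a median of 0.95. Pgam1, phosphoglycerate mutase, was at 207 and 244 CPM in controls, 1205 and 742 CPM in LPS, and 926 and 1071 CPM in SLC+LPS (2.11 for LPS, SE 0.31, edgeR adjusted p = 0.0377). Pgk1, phosphoglycerate kinase, gave 1.64 (SE 0.25, adjusted p = 0.0389). Lysosome and phagosome genes had no member that passed of 24 tested and a median of 0.80. Of them 11 had an unadjusted p under 0.05, all higher, against 21.4% of all genes in either direction. The largest of them by p was Gpnmb, a glycoprotein of lysosome-rich macrophages, at 144 and 354 CPM in controls and 1154 and 1402 CPM in LPS (2.36, adjusted p = 0.0598). Cd63 of the lysosome list passed with 6 or more markers (1.93, SE 0.39, edgeR adjusted p = 0.0486). Oxidative stress and iron genes had no passing member of 22 tested and a median of 0.47. With 6 or more markers Slc11a1 of that list passed (4.06, SE 0.61, edgeR adjusted p = 0.0261), and free RNA would give 47.5% of its LPS level in the full selection.

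The identity programme beyond the selection markers held 29 tested genes, of which none passed higher and 2 lower, Krt19 and Kcnip4, with a median of -0.29. Krt19, an epithelial-type keratin, was at 77.5 and 55.7 CPM in controls, 8.55 and 10.7 CPM in LPS, and 10.3 and 6.79 CPM in SLC+LPS. All 4 treated libraries were far below both controls. Its log2 difference was -2.78 (SE 0.34, edgeR adjusted p = 0.0367) and -2.92 with 6 or more markers (adjusted p = 0.0187). Kcnip4, a potassium channel partner, fell by 3.86 on the log2 scale (adjusted p = 0.0367), and free RNA would give 81.1% of its control level. Pparg, the factor these cells depend on, was at 313 and 254 CPM in controls, 130 and 153 CPM in LPS, and 194 and 134 CPM in SLC+LPS. Every treated library was below both controls, but the test did not pass (-1.0, SE 0.27, adjusted p = 0.107). Chil3 (0.34, adjusted p = 0.698), Car4, a carbonic anhydrase of the cell surface (0.13, adjusted p = 0.849), and Itgax, the integrin CD11c (0.04, adjusted p = 0.967), did not pass. Mrc1, the mannose receptor, was at 1057 and 934 CPM in controls and 274 and 885 CPM in LPS (-0.78, adjusted p = 0.445).

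Fabp4, a fatty acid carrier and target of Pparg, was high in LPS_2 alone, at 887 CPM against 107 to 163 CPM in the other 5 libraries. Of 25 surfactant and lipid genes, Msr1 passed and was higher, with a list median of 0.14 that was -0.13 when scaled by total UMIs. Msr1, the macrophage scavenger receptor, was at 13.6 and 17.8 CPM in controls, 120 and 92.3 CPM in LPS, and 167 and 103 CPM in SLC+LPS (2.75 for LPS, SE 0.34, edgeR adjusted p = 0.0367). Abcg1, which exports cholesterol, did not pass (-0.87). None of 15 cholesterol synthesis genes passed or had an unadjusted p under 0.05, and their median was 0.05, or -0.24 when scaled by total UMIs. Among 22 scavenger and efferocytosis receptors Msr1 was higher and Timd4, a phosphatidylserine receptor, was lower, though Timd4 lost its call with 6 or more markers (adjusted p = 0.101) and free RNA would give 72.2% of its control level. Among 21 growth factor and lineage genes Csf2rb2, the IL-3 receptor chain related to the GM-CSF receptor, passed at 182 and 176 CPM in controls and 424 and 572 CPM in LPS (1.47, SE 0.25, adjusted p = 0.0468). The GM-CSF receptor chains Csf2rb (1.02, adjusted p = 0.0635) and Csf2ra (-0.01, adjusted p = 0.994) did not pass, and reads of Csf2rb and Csf2rb2 may be split between these close copies.

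Among 23 repair and alternative activation genes Inhba and Mmp14 passed, both higher, with a median of -0.10. Mmp14, a membrane-bound collagenase, was at 11.1 and 19.3 CPM in controls, 202 and 75.8 CPM in LPS, and 218 and 207 CPM in SLC+LPS (3.19 for LPS, SE 0.52, edgeR adjusted p = 0.0456). With 6 or more markers the difference was far larger, at 5.98 for LPS and 6.54 for SLC+LPS. All 4 treated libraries were above both controls.

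Adrb1, the beta-1 adrenergic receptor, was the single passing gene of 22 adrenergic and cAMP signalling genes tested. It was at 85.3 and 91.0 CPM in controls, 13.6 and 9.67 CPM in LPS, and 16.7 and 19.3 CPM in SLC+LPS. Both controls were high and close together, and all 4 treated libraries were low. The log2 difference for LPS was -2.93 (SE 0.29, edgeR adjusted p = 0.0367) and was the same with 6 or more markers (-2.93, adjusted p = 0.0187), while without control_1 the adjusted p was 0.196 and without control_2 it was 0.252. Free RNA would give 23.7% of the control level. Thinned shares of Adrb1-positive cells were 9.13% and 10.4% in controls and 1.02% to 1.66% in the treated libraries, and 2.3% and 1.39% of lymphocyte-marked cells were positive in controls. The list's median was -0.19.

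Of 22 immediate early genes, Egr1 passed, at 1360 and 1422 CPM in controls and 537 and 408 CPM in LPS (-1.56, SE 0.25, edgeR adjusted p = 0.0406), with 30.6% of the control level from free RNA. The list's median was -0.59, and 4 of the 22 members had an unadjusted p under 0.05, all lower. None of 18 glucocorticoid receptor targets passed, 5 had an unadjusted p under 0.05, all lower, and the median was -0.43. Over all genes tested 21.4% had an unadjusted p under 0.05 in either direction, so both counts are near that share. Fkbp5, a sensitive glucocorticoid target, was at 147 and 136 CPM in controls and 130 and 281 CPM in LPS (0.54, adjusted p = 0.458). Of 20 NF-kB feedback genes Irak3, an inhibitor of Toll-like receptor signalling, passed and was higher (1.98, SE 0.31, adjusted p = 0.0398), with 58.6% of its LPS level from free RNA. That list's median was 0.26, or -0.01 when scaled by total UMIs. Ffar4, the receptor of omega-3 fatty acids, was at 123 and 102 CPM in controls, 25.1 and 38.2 CPM in LPS, and 20.5 and 15.0 CPM in SLC+LPS (-1.82 for LPS, SE 0.31, adjusted p = 0.0468).

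**Figure D4:**
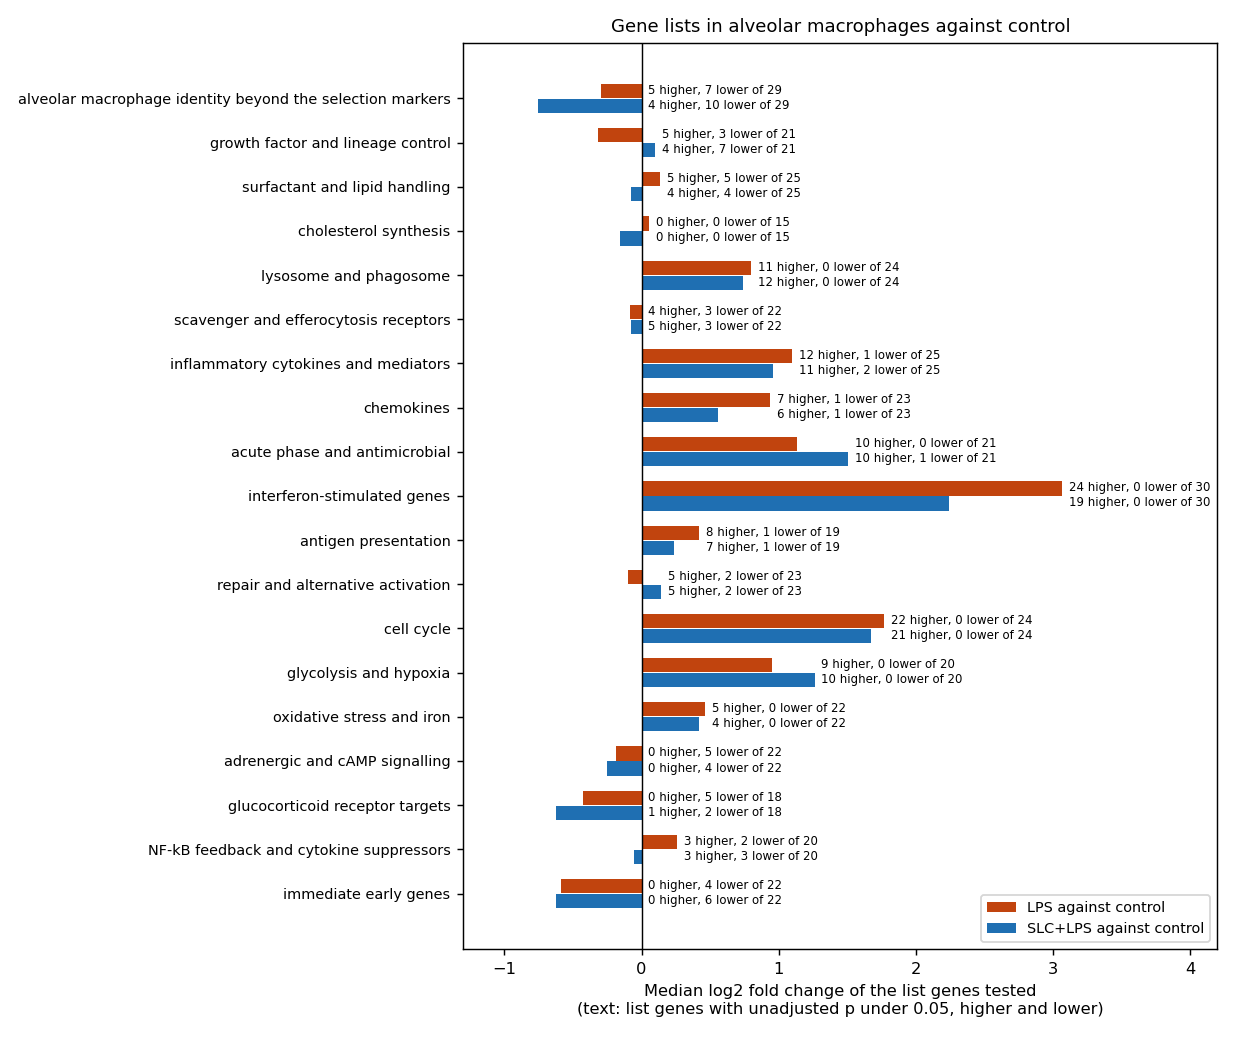
Median log2 difference of each gene list in alveolar macrophages for LPS against control and SLC+LPS against control, with the number of members at an unadjusted p under 0.05 written beside the bars. Interferon-stimulated genes have the highest medians, 3.07 and 2.24, and both comparisons share the 2 control mice.

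In SLC+LPS against control, Inhba, Ear6, Wfdc17, Ccl9 and Ly6i were higher, and Adrb1, Krt19, Epcam, Ffar4 and Areg were lower. Of 11684 genes 109 passed (0.933%), 68 higher (0.582%) and 41 lower (0.351%), and with 6 or more markers 264 passed, 102 of the 109 among them. Scaling by total UMIs gave 66 genes, 28 higher and 38 lower. The comparison uses the same control mice as LPS against control, so the calls of both share those values. By edgeR 0 genes passed without control_1 (1110 at an unadjusted p under 0.05), 0 without control_2 (1278) and 0 without SLC+LPS_2 (1559). Without SLC+LPS_1 there were 5: Acod1, Ly6i, Gbp6, Oasl2 and AW112010. Without LPS_1 there were 1889 and without LPS_2 there were 1902.

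Inhba gave a log2 difference of 5.63 (SE 0.56, edgeR adjusted p = 0.0326) in SLC+LPS against control. Ear6 gave 3.93 (SE 0.40, adjusted p = 0.0326), Wfdc17 4.18 (SE 0.47, adjusted p = 0.0326), with values of 1177 and 1224 CPM, and Ccl9 2.39 (SE 0.29, adjusted p = 0.0326). The share that free RNA would give was 28.3% for Wfdc17, 7.91% for Ccl9 and 20.04% for Inhba. Esd, a carboxylesterase-like hydrolase, was at 186 and 193 CPM in controls, 861 and 822 CPM in LPS, and 967 and 1208 CPM in SLC+LPS (2.52, SE 0.24, adjusted p = 0.0326). All 4 treated libraries were above both controls, and SLC+LPS_2 was the highest. Tgfbi, an extracellular matrix protein induced by TGF-β, was at 510 and 625 CPM in controls and 2167 and 2042 CPM in SLC+LPS (1.89, SE 0.23, adjusted p = 0.0326). Lyz2, lysozyme, was at 25141 and 23723 CPM in controls, 57154 and 46705 CPM in LPS, and 69149 and 80928 CPM in SLC+LPS, and passed for SLC+LPS (1.62, SE 0.23, adjusted p = 0.0432) but not for LPS (1.09, adjusted p = 0.0635).

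The acute phase list had 7 of 21 members higher in SLC+LPS, with a median of 1.50, against -0.01 over all genes: Saa3, Lyz2, Serpina3g, Wfdc17, Wfdc21, Ly6i and Ly6c2. Free RNA would give 50.3% of the Saa3 level and 40.9% of the Ly6c2 level. Saa3 was found in 46.1% and 60.3% of thinned alveolar macrophages and in 38.8% and 53.1% of lymphocyte-marked cells. Of 30 interferon-stimulated genes only Cmpk2 passed (3.51, SE 0.44, edgeR adjusted p = 0.0358, and 4.10 with 6 or more markers), 19 had an unadjusted p under 0.05, all higher, against 21.2% of all genes in either direction, and the median was 2.24. Gbp3 did not pass, at 28.6 and 68.6 CPM in SLC+LPS (3.52, adjusted p = 0.0515). Of 25 inflammatory mediators Acod1 and Sod2 passed, with a median of 0.96, and free RNA would give 88.9% of the Acod1 level. Of 24 cell cycle genes Ccnb1 passed (2.13, SE 0.32, adjusted p = 0.0446), 21 had an unadjusted p under 0.05 and the median was 1.67. Pgam1 and Pgk1 passed among 20 glycolysis genes, with a median of 1.26. At the SLC+LPS level free RNA would give 38.6% for Sod2 and 41.8% for Cmpk2.

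In the other lists few members passed in SLC+LPS. Krt19 and Kcnip4 were again the 2 of 29 identity genes that passed, both lower, with a median of -0.75. Among 23 repair genes Inhba and Mmp14 were higher and Areg lower, with a median of 0.14 that was -0.07 when scaled by total UMIs. Msr1 was higher among 25 lipid genes (median -0.08) and among 22 scavenger receptors (median -0.08), where Timd4 was lower, a call lost with 6 or more markers (adjusted p = 0.0518). For Msr1 free RNA would give 31.7% of the SLC+LPS level and for Mmp14 26.7%. Ccl9 was higher and Ccl22 lower among 23 chemokine genes (median 0.56). Egr1 was lower among 22 immediate early genes (median -0.63) and Adrb1 among 22 adrenergic and cAMP genes (median -0.25). No member passed among the genes of the lysosome (median 0.74, 12 of 24 at an unadjusted p under 0.05, all higher, against 21.2% of all genes in either direction), antigen presentation (0.23), oxidative stress and iron (0.42), cholesterol synthesis (-0.16), NF-kB feedback (-0.05), glucocorticoid targets (-0.62) and growth factor and lineage control (0.10, or -0.12 when scaled by total UMIs). With 6 or more markers Slc11a1 (oxidative stress and iron), Csf2rb2 (growth factor) and Irak3, Tnip3 and Trib1 (NF-kB feedback) passed. Their edgeR adjusted p was 0.0328 to 0.0411, and Trib1 was lower and the others higher.

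Of the lower genes in SLC+LPS, Areg, which encodes the epithelial growth factor amphiregulin, was at 225 and 248 CPM in controls, 129 and 148 CPM in LPS, and 64.0 and 61.8 CPM in SLC+LPS. The 3 groups did not overlap, with SLC+LPS lowest, and lack of overlap with control was a condition for naming the gene. SLC+LPS against control gave -1.91 (SE 0.23, edgeR adjusted p = 0.0326) and LPS against control -0.77 (adjusted p = 0.116). Epcam, an epithelial adhesion molecule, was at 160 and 162 CPM in controls, 11.1 and 35.7 CPM in LPS, and 12.6 and 14.3 CPM in SLC+LPS (-3.59 for SLC+LPS, SE 0.54, adjusted p = 0.0446). Ffar4 gave -2.65 (SE 0.32, adjusted p = 0.0326), Krt19 -2.93 (SE 0.35, adjusted p = 0.0326) and Egr1 -1.65 (SE 0.25, adjusted p = 0.0446). Adrb1 gave -2.29 (SE 0.28, adjusted p = 0.0326). Free RNA would give 12.1% of the Epcam level and 8.58% of the Krt19 level in the controls, where the club cell genes given above were also highest.

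No gene passed between SLC+LPS and LPS alone, the comparison of LPS with and without the activation. Of 11684 genes edgeR called 0 (0%), with 249 at an unadjusted p under 0.05 (2.13%), and DESeq2 called 3: Cxcl15 and Mid1 higher and H2-T23 lower. Without LPS_1, where the spread of the lone LPS mouse is assumed from the other groups, 662 genes passed. Leaving out any other library gave 0 (120 to 317 at an unadjusted p under 0.05). The 5 genes with the smallest unadjusted p and at least 50 CPM are given as values, all with an adjusted p of 0.972 by edgeR. H2-T23, the non-classical MHC gene for Qa-1, was at 82.0 and 112 CPM in LPS and 21.1 and 16.4 CPM in SLC+LPS, with 28.2 and 16.9 CPM in controls (-2.36, SE 0.35). The SLC+LPS values were near those of the controls. Wdfy1, an endosomal adaptor, was at 62.8 and 61.6 CPM in LPS and 14.4 and 24.0 CPM in SLC+LPS (-1.72). Areg gave -1.14 (SE 0.22). Epsti1, an interferon-induced gene, was at 74.2 and 71.7 CPM in LPS and 34.4 and 33.6 CPM in SLC+LPS (-1.10, SE 0.23), with 17.6 and 18.9 CPM in controls. Free RNA would give 24.2% of the LPS level of Wdfy1 and 28.2% of that of Epsti1. Cxcl15, an epithelial chemokine also called lungkine, was at 19.6 and 9.81 CPM in LPS and 80.6 and 52.2 CPM in SLC+LPS (2.19), and free RNA would give 64.8% of that level. With 6 or more markers its difference was 0.96 (SE 0.74), and the alveolar type 2 gene sums given above were also higher in SLC+LPS than in LPS.

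No list had a passing member between the treated groups. Interferon-stimulated genes had a median of -0.41, with 3 of 30 members at an unadjusted p under 0.05, all lower in SLC+LPS. Over all genes tested that share was 2.13% in either direction. Irgm1 was at 125 and 122 CPM in LPS and 35.4 and 72.6 CPM in SLC+LPS (-1.20, SE 0.46), and Oasl1, an antiviral 2′-5′ oligoadenylate synthetase-like gene, at 53.8 and 116 CPM against 32.0 and 34.0 CPM (-1.37, SE 0.40). Psmb9 was at 32.9 and 21.7 CPM in LPS and 9.72 and 13.2 CPM in SLC+LPS (-1.26, SE 0.37). The groups did not overlap for these genes, which were picked from their lists by smallest p and did not pass. The share of all genes without overlap was not counted, and nothing is read from it. Free RNA would give 37.3% of the LPS level of Oasl1. Acute phase genes had a median of 0.53. Il1b gave -0.70 (SE 0.32), Tnf -0.85 (SE 0.35), Cxcl1, a neutrophil chemokine, -1.50 (SE 0.49), Lcn2 1.20 (SE 0.76), and Adrb1 gave 0.64 (SE 0.28), all with an edgeR adjusted p of 0.972.

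The LPS response of alveolar macrophages was compared with that of C1q-positive macrophages of the same libraries, picked by genes of interstitial macrophages. Whether this set held the same kinds of cells in controls and LPS was not tested. The C1q-positive macrophages were cells with at most 1 of the 10 markers, at least 2 C1q genes and another interstitial gene, 2278 in all. Of 11747 genes 274 (2.33%) differed in response by an interaction term blocked on library, 145 with a higher response in alveolar macrophages (1.23%) and 129 with a lower one (1.1%). Higher and lower responses, here and below, refer to the signed log2 difference of LPS against control and not to its size. A gene that fell only in the other set thus has a higher response in alveolar macrophages. An unadjusted p under 0.05 was found for 15.2% of genes. With 6 or more markers 411 differed, 261 of the 274 among them. Free RNA of the C1q-positive cells was estimated at 19.9% and 37.0% of UMIs in controls and 29.5% and 7.46% in LPS. With genes of over 20% expected free RNA in either set left out, 146 of 2148 genes differed, 89 of the 274 among them. Without control_1 33 genes passed, without control_2 59, without LPS_1 1099 and without LPS_2 1131.

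**Figure D5:**
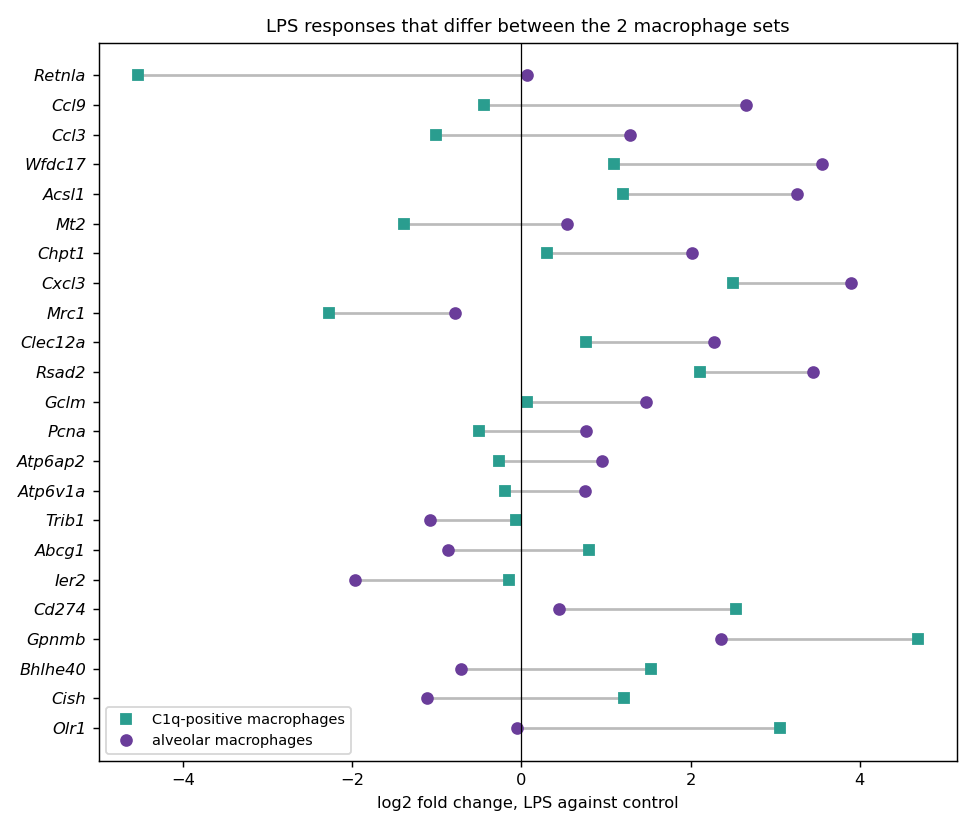
Log2 difference of LPS against control (horizontal axis) in alveolar macrophages (circles) and in C1q-positive macrophages (squares) for the 23 named genes whose responses differed, with 1 gene per line ordered by the size of the difference. For Retnla, Ccl9 and Ccl3 the circle lies to the right of the square, and for Olr1, Cd274 and Gpnmb it lies to the left.

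Retnla, a secreted resistin-like protein of alternatively activated macrophages, was at 39.1 and 46.6 CPM in control and 71.9 and 18.4 CPM in LPS alveolar macrophages. By contrast, in C1q-positive macrophages it was at 423 and 481 CPM in controls and 28.3 and 9.90 CPM in LPS. It thus fell in the C1q-positive cells (log2 difference -4.53, edgeR adjusted p = 0.00509) and did not pass in the alveolar macrophages (0.06, adjusted p = 0.962), where free RNA would give 59.7% of its LPS level. The responses differed by 4.54 (SE 0.26, adjusted p = 1.02e-05), and by 5.19 with 6 or more markers (adjusted p = 0.00597). Ccl9 differed by 3.17 (SE 0.24, adjusted p = 7.41e-05), with 1039 and 958 CPM in control and 442 and 1030 CPM in LPS C1q-positive cells. Ccl3, another ligand of Ccr1, differed by 2.34 (SE 0.23, adjusted p = 0.000396), with 561 and 809 CPM in control and 2159 and 1187 CPM in LPS alveolar macrophages, against 4218 and 4423 CPM and 2984 and 1324 CPM in the C1q-positive cells, and 33.8% of its LPS level in alveolar macrophages would come from free RNA. Of 23 chemokine genes 4 had a higher response in alveolar macrophages, namely Ccl9, Ccl3, Ccl4 and Cxcl3, and none a lower one. Wfdc17 differed by 2.31 (SE 0.27, adjusted p = 0.00126) and Acsl1 by 2.01 (SE 0.22, adjusted p = 0.000619). Of 22 oxidative stress and iron genes 5 had a higher response in alveolar macrophages, Hmox1, Mt1, Gclm, Mt2 and Prdx1, and none a lower one. For Mt2 the log2 difference was 0.54 in alveolar macrophages and -1.39 in C1q-positive cells, which changed more. Hmox1, heme oxygenase 1, was at 1826 and 1793 CPM in control and 1931 and 4191 CPM in LPS alveolar macrophages, and at 3901 and 5735 CPM and 1064 and 1741 CPM in the C1q-positive cells.

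Among the genes with a lower LPS response in alveolar macrophages were a lipid receptor, an immune checkpoint ligand and a chemoattractant receptor. Olr1, the oxidised LDL receptor, was at 864 and 790 CPM in control and 421 and 1175 CPM in LPS alveolar macrophages, and at 17.8 and 19.0 CPM and 130 and 178 CPM in C1q-positive cells, a difference of -3.30 (SE 0.45, edgeR adjusted p = 0.0159). Cd274, which encodes PD-L1, was at 227 and 149 CPM in control and 293 and 217 CPM in LPS alveolar macrophages, and at 85.3 and 69.6 CPM and 434 and 465 CPM in C1q-positive cells (-2.12, SE 0.26, adjusted p = 0.00137). Alveolar macrophages were above the C1q-positive cells in controls for both genes, and below them for Cd274 after LPS. The formyl peptide receptor Fpr1, chosen after its values were seen, was at 685 and 624 CPM in control and 309 and 992 CPM in LPS alveolar macrophages, and at 9.16 and 13.2 CPM and 149 and 266 CPM in C1q-positive cells (-4.43, SE 0.38, adjusted p = 0.000605). For Cd274, 55.8% of the level of LPS alveolar macrophages would come from free RNA. Gpnmb differed by -2.17 (SE 0.33, adjusted p = 0.00779) and Abcg1 by -1.74 (SE 0.33, adjusted p = 0.0318). For Inhba the difference in response did not pass (-0.63, SE 0.70, adjusted p = 0.752), with 345 and 496 CPM in LPS C1q-positive cells.

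Against Ly6c2-positive monocytes and macrophages, 3808 cells with at most 1 of the 10 markers, 8 of 12838 genes (0.0623%) differed in LPS response, all with a lower response in alveolar macrophages: Tnf, Areg, Il23a, Cd300lf, Hcar2, Trps1, Sftpa1 and P2ry13. An unadjusted p under 0.05 was found for 10.1% of genes. Tnf was at 2846 and 3463 CPM in control and 1550 and 2608 CPM in LPS alveolar macrophages, and at 338 and 381 CPM and 1494 and 1985 CPM in the Ly6c2-positive cells. The log2 differences were -0.60 and 2.27, and they differed by -2.88 (SE 0.29, edgeR adjusted p = 0.0126). Control alveolar macrophages thus held more Tnf RNA than Ly6c2-positive cells of either group. Areg differed by -3.14 (adjusted p = 0.0144), with a log2 difference of 2.41 in the Ly6c2-positive cells. Without control_1 edgeR called 0 genes (1052 at an unadjusted p under 0.05) and without control_2 it called 0 (931), and without LPS_1 it called 431. With 6 or more markers 61 genes differed, 16 with a higher and 45 with a lower response in alveolar macrophages. Of the 8 genes 7 were among them, without Sftpa1 (adjusted p = 0.210).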

How the data were processed

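Single-cell RNA of 6 mouse lungs was captured on the BD Rhapsody system, per the labels' protocols, and read on a DNBSEQ-T7 sequencer. The deposited values are raw UMI counts, whole numbers for each gene in each barcode, which the authors derived from their reads. The submitters' processing notes name the builds GRCm39 and mm39, and the aligner and counting tool are not given in the sources used here. Gene names were used as the files give them.

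UMIs of the selected cells were summed per library, since cells are not replicates, and tested with edgeR 4.0.16 (quasi-likelihood F test, TMM normalisation, filterByExpr, robust) in R 4.3.3, in 1 fit of 6 libraries with the group as the only term. The 13 genes of the rule stayed in the fit and were not tested. Adjusted p-values are Benjamini-Hochberg over all genes tested. Responses of 2 cell sets were compared by an interaction term with the library as a block. Cells were read with scanpy 1.11.5. Scrublet, run per library at an expected rate of 0.06, called 21, 20, 1, 8, 0 and 0 of the selected cells from control_1 to SLC+LPS_2 as doublets, and these were kept in. Too few calls show that it had not worked in the SLC+LPS libraries. The top 6% of scores were left out as an alternative. On simulated counts the test recovered 84% of genes changed 4-fold and 97% of genes changed 8-fold for LPS against control over 11259 genes, with 23 false calls. The interaction test recovered 27% and 82% over 11534 genes, with 13 false calls. In each simulation 200 genes were changed. Both simulated cell sets had the depth of the alveolar macrophage sums, and all groups had the same spread. The Ly6c2-positive control sums held 418250 and 280287 UMIs, against 3865248 and 4060718 for alveolar macrophages. The recovered shares are therefore not those of the tests reported here.

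The members, gene lists and tests were chosen with earlier results of these data known, so they are no independent support for a direction. Named genes are the largest changes that passed with at least 100 CPM, without overlap between groups and with at most 20% expected free RNA, up to 4 per list by p with at least 20 CPM, and a fixed set. Members of a list that passed are also named. Some genes are not reported here. Predicted, mitochondrial, ribosomal, haemoglobin and receptor segment genes were left out of the largest changes. Replicates of a group differed by more than counting noise (chi-square per degree of freedom 8.49, 62.1 and 32.1). Intervals cover counting error only. Alternatives were other scaling, DESeq2 1.42.0, no low-count filter, other marker minimums, a stricter barcode filter, thinning to 1000 UMIs, leaving out genes with over 20% expected free RNA, a replicate block, and leaving out each library. The set with 6 or more markers without each library in turn, the crossed block and the share without the lineage genes were added after seeing the data.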

Additional observations from a re-analysis of the deposited data

Results flagged for a closer look

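The LPS response differed between alveolar macrophages and C1q-positive macrophages by the interaction test for 23 of the named genes reported here, 15 with a higher and 8 with a lower response in alveolar macrophages. Besides the differences reported above for Retnla (4.54), Ccl9 (3.17), Ccl3 (2.34), Wfdc17 (2.31) and Acsl1 (2.01), all on the log2 scale, higher responses were found for the metallothionein Mt2 (1.89), the phospholipid enzyme Chpt1 (1.69), the chemokine Cxcl3 (1.56), the mannose receptor Mrc1 (1.46), the lectin Clec12a (1.46), the antiviral gene Rsad2 (1.38, and 2.18 with 6 or more markers), the glutathione synthesis gene Gclm (1.36) and the replication clamp Pcna (1.26). The proton pump genes Atp6ap2 (1.21) and Atp6v1a (0.98) followed. Lower responses included Olr1 (-3.30), Gpnmb (-2.17), Cd274 (-2.12) and Abcg1 (-1.74), reported above. The others were the cytokine inhibitor Cish (-2.35), the transcription factor Bhlhe40 (-2.31), the early gene Ier2 (-2.04) and the pseudokinase gene Trib1 (-1.07). These are signed differences. Mrc1 was lower in LPS in both sets, at -0.78 in alveolar macrophages and -2.27 in C1q-positive cells. Ier2 (-1.97 against -0.15) and Trib1 (-1.08 against -0.07) were lower mainly in alveolar macrophages. Against Ly6c2-positive cells the responses of Tnf (-2.88) and Areg (-3.14) were lower. Both cell sets of a comparison share libraries, and the cells were chosen by marker genes that the test left out.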

How the results depend on the processing

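Of 35 named genes that passed in LPS against control, 33 passed with 6 or more markers, 31 with scaling by total UMIs and 35 with DESeq2, and of 31 in SLC+LPS against control 30, 19 and 31 did. With 6 or more markers 11 further named genes passed in each comparison with control. No named gene that passed, here or in an alternative, changed sign there. Some that did not pass in either did, such as Itgax for LPS and Cxcl10 for SLC+LPS with 6 or more markers. The count for LPS against control (228) was 922 with DESeq2, 1602 without a low-count filter, 444 with 3 or more markers, 138 with the stricter barcode filter (1000 UMIs, 500 genes, under 10% mitochondrial), 108 without the top 6% of Scrublet scores and 117 without genes of over 20% free RNA. It ranged from 0 to 2164 with 1 library left out, and with 6 or more markers required it was 1 and 0 without control_1 and control_2 and 1358 and 682 without LPS_1 and LPS_2. The count for SLC+LPS against control (109) was 66 with total UMIs, 867 with DESeq2, 1491 without a filter, 229 with 3 and 264 with 6 or more markers, 44 with the stricter filter, 52 without the top scores, 173 after thinning and 203 without free-RNA-prone genes. Leaving out 1 library gave 0 to 1902, and with 6 or more markers 1 and 0 without the controls, 1460 and 1485 without the LPS mice, where Cytl1 was the 1 gene without control_1 and Cd83, Inhba, Ly6c2 and Msr1 were the 4 without SLC+LPS_2. SLC+LPS against LPS gave 3 with DESeq2, 35 without a filter and 0 to 662 with 1 library left out. Differences from C1q-positive cells (274) were 634 without a filter and 146 without free-RNA-prone genes, and 33 to 1131 with 1 library left out. Those from Ly6c2-positive cells (8) were 253 without a filter, 4 with 3 markers, 61 with 6, 4 with the stricter filter, and 0 to 431 with 1 library left out. Of the 253 genes 66 had a higher response in alveolar macrophages, and of the 61 genes 16 did. Leaving out free-RNA-prone genes also shrank the set of genes tested, so its counts are over fewer genes. It left 4016 genes for LPS against control, with 86 of the 228 among them. For SLC+LPS against control it left 1031 genes, with 33 of the 109 among them. Against Ly6c2-positive cells it left 470 genes, of which 12 differed, 8 higher and 4 lower. None of the 8 genes of the main test was among the 470, so they were not tested there. The share of cells in controls was 9.05% with 3 markers, 4.61% with 6, 0.147% without cells holding other-cell UMIs, 3.27% after thinning and 9.16% without the lineage genes. In LPS it was 0.865% without other-cell UMIs and 1.64% after thinning, and in SLC+LPS 4.89% with 3 markers, 0.153% and 0.774%. The cause of these shifts was not tested. Gene tests without cells holding other-cell UMIs were not run, since a library then had under 20 cells.

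Replicate numbers did not pair the mice: deviations from the group means correlated at -0.01 for control and LPS, 0.02 for control and SLC+LPS and -0.31 for LPS and SLC+LPS. With the replicate block edgeR called 0 genes in each comparison with control (2039 and 2035 at an unadjusted p under 0.05) and 0 for SLC+LPS against LPS (155). Crossing the numbers of the SLC+LPS mice in the block gave 0 calls for SLC+LPS against LPS (335 at an unadjusted p under 0.05).

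Depth limits the rarest genes, since the smallest library of selected cells had 273 cells, and 2 mice a group limit every test.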

Other observations

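Library-specific levels set LPS_2 and SLC+LPS_1 apart from LPS_1 and SLC+LPS_2 for some genes of alveolar macrophages that the treatment labels do not separate. Cxcl9 was at 1326 CPM in LPS_1 and 2491 CPM in SLC+LPS_2, and at 177 and 208 CPM in LPS_2 and SLC+LPS_1. Cxcl3 ran the other way, at 7809 and 3271 CPM in LPS_2 and SLC+LPS_1 and at 2392 and 697 CPM in LPS_1 and SLC+LPS_2. Fth1, the ferritin heavy chain, was at 42132 and 44419 CPM in LPS_2 and SLC+LPS_1, 32965 and 18815 CPM in LPS_1 and SLC+LPS_2, and 7398 and 13744 CPM in controls. These genes were picked after their values were seen, no test was made of this split of the mice, and what sets the mice apart was not tested.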
